A study of Homo sapiens with 19 samples.

Results

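The genes described here are 35 ribosome biogenesis genes, chosen as a list of symbols for proteins that modify, process or assemble ribosomal RNA. They were 35 of the 24234 genes of the RNA table, and 34 of them had usable RNA values. The cells were U2OS, an established human osteosarcoma line, transfected with siRNA against EP400 or, as the mock condition, with siRNA against GFP, and harvested 72 hr later. EP400 is the ATPase of a chromatin remodelling complex known for exchanging histone variants into nucleosomes. RNA was sequenced once in each condition. Chromatin immunoprecipitation (ChIP) was done for RNA polymerase II (Pol II), the Mediator subunit MED26 and the histone variants H2AZ and H3.3 in both conditions, and for H3K18ac and H3K4me1 after mock siRNA, with 1 library each. EP400 itself was precipitated 3 times and given as 1 pooled peak list, whose siRNA condition the labels do not give. Nothing here is replicated between conditions, so each difference compares 1 library with 1 library and no test of it was made. EP400 mRNA was at 10.04 FPKM in the mock library and 2.28 FPKM after EP400 siRNA (fragments per unit of transcript length and per unit of library size). The second value is 22.8% of the first, although the authors' limits for the libraries, summed per gene, overlapped (0.165 to 19.9 and 0.162 to 4.41). Among 6 genes of the osteoblast lineage, COL1A1 stood at 376 FPKM and SPARC at 229 FPKM in the mock library, while RUNX2, ALPL, SPP1 and BGLAP lay between 1.013 and 4.34 FPKM. After EP400 siRNA, COL1A1 was at 60.8 FPKM, SPARC at 179, RUNX2 at 0.697, ALPL at 7.75, SPP1 at 7.46 and BGLAP at 0.325. The leukocyte gene PTPRC, the epithelial gene EPCAM and the endothelial gene CDH5 were each under 1 FPKM in both libraries.

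Ribosomes are built in the nucleolus, where RNA polymerase I transcribes a long precursor that is cut, folded and chemically modified while ribosomal proteins join it. Small nucleolar RNA-protein particles (snoRNPs) of the box C/D class guide 2'-O-methylation of the precursor and those of the box H/ACA class guide pseudouridylation. The small subunit processome then releases the precursor of the 40S subunit, and other factors mature the 60S subunit. Many such genes are known targets of MYC, a transcription factor that binds the E-box CACGTG with its partner MAX.

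RefSeq promoter entries (build GRCh38.p14, 250 bases before to 50 bases after the start) matched 28 of the 35 genes. CACGTG, a palindrome that reads the same on both strands, was found in 13 of these 28 promoters (46.4%), against 10.3% of the 9087 promoters of genes analysed for RNA and 7.26% of all 35116 promoters in the table. It was in 24 of 79 promoters of other ribosome biogenesis genes (30.4%) and in 3 of 64 promoters of cytosolic ribosomal protein genes (4.69%). In 12 of the 13 members the motif began within 50 bases of the start (92.3%), which held for 40.8% of the 936 analysed genes with a motif. A match of letters says nothing of whether a factor bound there. The first 5 stretches of 30 bases, in order of RNA ratio, are shown because these members had both the motif and an EP400 peak at an end. They are written from 5' to 3' on the gene's strand with the motif in capitals, and their positions in order are chr2:28894658-28894687 (plus strand), chr6:143843354-143843383 (plus), chr4:2963374-2963403 (minus), chr6:41921515-41921544 (plus) and chr17:4555340-4555369 (minus).
WDR43: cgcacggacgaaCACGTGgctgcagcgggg
LTV1: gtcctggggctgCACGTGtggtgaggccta
NOP14: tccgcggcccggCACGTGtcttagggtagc
BYSL: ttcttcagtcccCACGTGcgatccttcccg
MYBBP1A: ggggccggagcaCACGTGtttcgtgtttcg
In all 5 the motif lay after the start, beginning at base 4 in WDR43, base 16 in NOP14, base 28 in MYBBP1A and base 29 in LTV1 and BYSL. At NOP14 the EP400 peak lay at the far end of the gene, away from the motif. The other 8 members with the motif had no EP400 peak at an end, and in 4 of them it began at most 15 bases before the start, a subset picked after the positions were seen. These lie at chr15:34343130-34343159 (minus), chr3:51941892-51941921 (minus), chr12:101280083-101280112 (plus) and chr11:34105602-34105631 (plus).
NOP10: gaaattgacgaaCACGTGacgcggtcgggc
RRP9: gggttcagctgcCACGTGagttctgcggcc
UTP20: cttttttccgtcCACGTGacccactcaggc
NAT10: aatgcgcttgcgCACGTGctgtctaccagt
The longer promoter stretch of WDR43, at chr2:28894417-28894696 from 250 bases before to 30 bases after the start, is shown because this gene had the highest RNA ratio of the 5. It holds the motif once.
WDR43 promoter: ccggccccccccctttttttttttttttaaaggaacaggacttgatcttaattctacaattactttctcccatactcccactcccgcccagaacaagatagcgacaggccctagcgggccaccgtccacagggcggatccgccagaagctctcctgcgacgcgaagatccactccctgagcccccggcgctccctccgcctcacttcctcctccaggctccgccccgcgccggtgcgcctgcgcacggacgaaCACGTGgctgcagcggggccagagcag
Members with the motif did not have the higher RNA ratios. The median log2 ratio was 0.19 over the 12 measured members with the motif, of which 3 were 2-fold or more above mock, and 0.85 over the 15 without it, of which 4 were 2-fold or more above and 1 as far below.

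After EP400 siRNA the RNA of 25 of the 34 measured members was above its mock level, at a background of 42.7% of the 11673 genes analysed. Values are FPKM summed over each gene's transcripts. A ratio is the log2 of FPKM + 1 after EP400 siRNA over FPKM + 1 after mock siRNA, a scale that shrinks changes of low genes. In bulk RNA, less RNA per cell and fewer cells that hold it cannot be told apart. Higher by 2-fold or more were 8 members, NOP58, GNL3, DDX21, LTV1, WDR43, DDX10, WDR12 and EBNA1BP2, against 6.11% of all genes. Lower by 2-fold or more was 1 member, NHP2, against 22.9% of all genes. The median ratio of the members was 0.70 and that of all genes was -0.20. The authors' confidence limits are given per transcript and were summed per gene here, which can widen them. The summed limits of the libraries did not separate for any of the 34 members, and separated for 0.214% of all genes. With 1 library per condition these ratios therefore carry no estimate of biological error.

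The scale of the libraries moved these counts. Over transcripts of 200 nt or more, the deposited FPKM came to a sum of 626424 after mock siRNA and 366796 after EP400 siRNA. Rescaling both to the same sum moved the median of all genes from -0.20 to 0.48, a shift of 0.68 in log2. On that scale 23 members were higher by 2-fold or more and none lower by as much, with a median of 1.47, against 31.5% higher and 5.97% lower of all genes. With the median of all genes set to 0, 15 members were higher by 2-fold or more and none lower by as much, against 10.8% and 15.6% of all genes. The ratio of 24 members stayed above 0, and that of NHP2 below 0, under every scaling, filter and pseudocount tried. The sign of the other 9, FBL, NOP10, NOLC1, MYBBP1A, RRP9, RRP12, BYSL, BOP1 and PPAN, turned under at least 1 of them.

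The box C/D particle is built on the scaffold proteins NOP58 and NOP56 and on fibrillarin (FBL), its methyltransferase. NOP58 had the highest ratio of all members, at 8.15 FPKM in the mock library and 24.2 FPKM after EP400 siRNA, a log2 ratio of 1.46. NOP56 went from 56.4 to 109 FPKM (log2 0.94). Its coding transcript and its noncoding transcript, NM_006392 and NR_027700, were both higher, at 30.6 against 64.6 FPKM and 25.8 against 44.6 FPKM. FBL, the most abundant member, stood at 328 FPKM in the mock library and 267 FPKM after EP400 siRNA (log2 -0.30, and 0.47 on equal sums). The scaffold proteins were above their mock level on both scales, and the sign of the enzyme's ratio turned with the scale.

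The box H/ACA core split evenly. Dyskerin (DKC1), the pseudouridine synthase, was measured at 24.2 FPKM in the mock library and 44.2 FPKM after EP400 siRNA (log2 0.84), and GAR1 at 14.3 and 21.2 FPKM (log2 0.54). NHP2 was measured at 269 and 133 FPKM (log2 -1.01) and NOP10 at 256 and 148 FPKM (log2 -0.79). The 2 members with lower ratios were the 2 small core proteins with the highest mock FPKM of the group. Both measured transcripts of NHP2 were lower, at 190 against 103 FPKM and 79.1 against 29.7 FPKM. On equal sums NHP2 was at -0.24 and NOP10 at -0.02. The signs of DKC1, GAR1 and NHP2 were the same under every alternative tried, and that of NOP10 turned with the groups of mean FPKM centred (0.14).

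Of the 6 nucleolar scaffold, chaperone and regulator proteins, 5 had a ratio above 0 and 2 of these were at least 2-fold higher (median 0.84). Nucleolin (NCL) was measured at 113 FPKM after mock siRNA and 190 FPKM after EP400 siRNA (log2 0.75). Nucleophosmin (NPM1), a chaperone that is the main granular component protein of the nucleolus, was measured at 87.1 and 166 FPKM (log2 0.92), with all 3 of its transcripts higher. The RNA helicase DDX21 went from 13.5 to 31.0 FPKM (log2 1.15), and GNL3 (nucleostemin), a GTP-binding protein, from 5.06 to 11.8 FPKM (log2 1.08). NOLC1, a chaperone of snoRNPs, stood at 29.8 and 31.4 FPKM (log2 0.07). MYBBP1A, a nucleolar protein known for repressing transcription of ribosomal RNA genes, was the exception, at 33.0 and 18.3 FPKM (log2 -0.82). Its lower value came from transcript NM_014520, at 27.7 against 12.8 FPKM, while NM_001105538 stood at 5.25 and 5.49 FPKM.

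Of the 12 small subunit factors, 9 had a ratio above 0, 3 were at least 2-fold higher and none was at least 2-fold lower (median 0.73). DDX10, an RNA helicase of the processome, had the largest ratio of the group, at 1.76 and 5.87 FPKM (log2 1.32). WDR43, a processome protein that links it to transcription of the precursor, went from 5.17 to 14.02 FPKM (log2 1.28), and LTV1, an assembly factor of the late 40S precursor, from 3.60 to 8.76 FPKM (log2 1.08). TSR1, a late 40S factor related to GTPases, was at 6.40 and 12.5 FPKM (log2 0.87), and WDR3 at 5.28 and 10.3 FPKM (log2 0.85). The large scaffold proteins UTP20 and HEATR1 were at 1.41 and 3.18 FPKM (log2 0.79) and at 3.20 and 5.64 FPKM (log2 0.66). NAT10, which acetylates cytidines of the small subunit RNA, was at 16.1 and 23.3 FPKM (log2 0.50), and NOP14 at 9.35 and 11.6 FPKM (log2 0.28). The 3 factors with the highest mock FPKM of the group were the ones with ratios below 0. These were RRP9, a protein of the U3 snoRNP, at 99.6 and 85.8 FPKM (log2 -0.21), BYSL (bystin), a 40S factor, at 55.1 and 45.3 FPKM (log2 -0.28), and RRP12, a 40S export factor, at 40.5 and 39.0 FPKM (log2 -0.05).

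NOP2, a methyltransferase of large subunit RNA, had a failed estimate in the mock library and was left out of the RNA counts. Of the other 9 large subunit factors, 7 had a ratio above 0, 2 were at least 2-fold higher and none was at least 2-fold lower (median 0.50). EBNA1BP2, an assembly factor of the early 60S precursor, had the highest ratio among the 12 members at 50 FPKM or more in the mock library, at 67.7 and 174 FPKM (log2 1.35). PES1, BOP1 and WDR12 form 1 complex, PeBoW, and their RNA did not move together. WDR12 was at 3.65 and 8.55 FPKM (log2 1.04), PES1 at 105 and 114 FPKM (log2 0.11) and BOP1 at 152 and 87.9 FPKM (log2 -0.79). RRS1, which helps bring the 5S particle into the precursor, was at 12.8 and 26.4 FPKM (log2 0.99), and the helicase DDX18 at 5.30 and 11.2 FPKM (log2 0.95). RRP1B was at 11.7 and 17.0 FPKM (log2 0.50) and NOP16 at 51.6 and 68.6 FPKM (log2 0.40). PPAN, whose locus also holds the readthrough gene PPAN-P2RY11, was at 42.4 and 26.6 FPKM (log2 -0.66). Reads of PPAN and the readthrough gene cannot be told apart in these values.

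**Figure D1:**
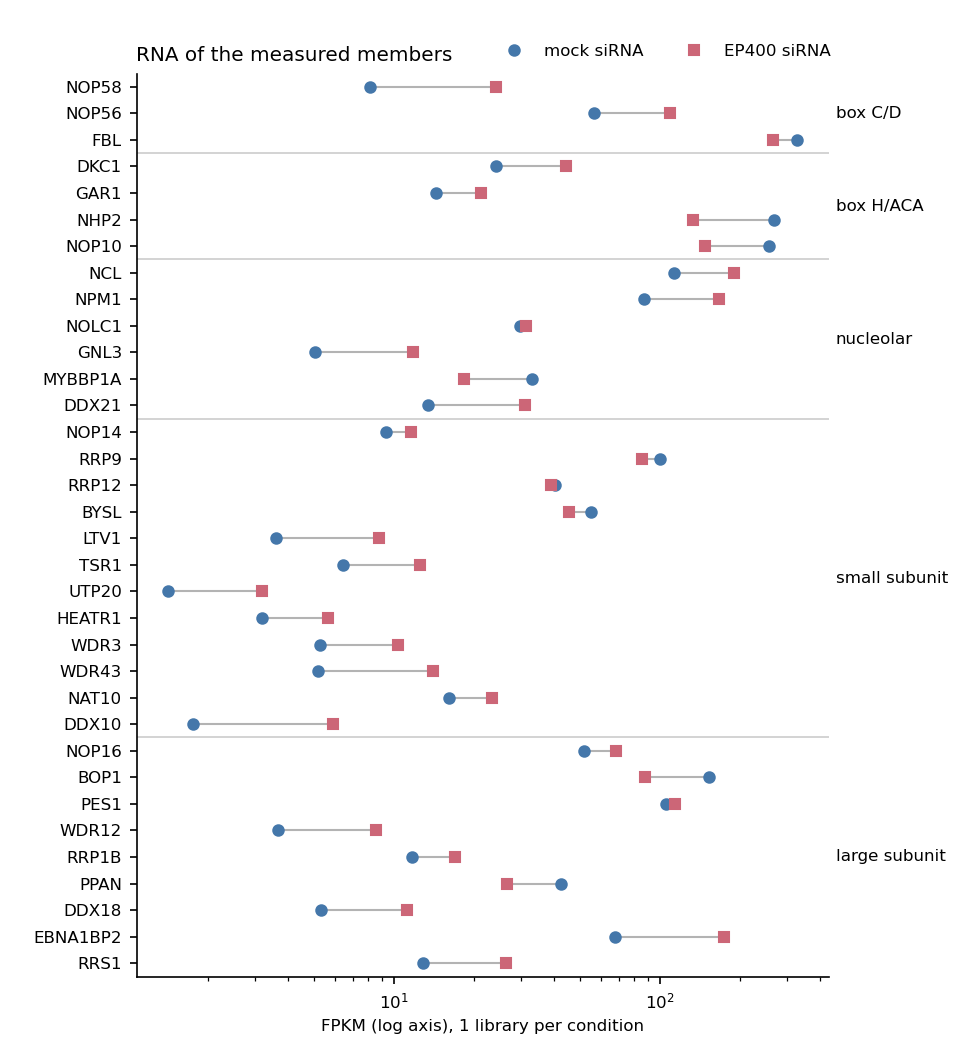
FPKM of each measured member in the mock library (circles) and the EP400 siRNA library (squares), on a log axis and grouped by role, with a line joining the values of a gene. The squares of all 12 genes under 10 FPKM in the mock library lie to the right of their circles, and those of 9 members, FBL, NHP2, NOP10, MYBBP1A, RRP9, RRP12, BYSL, BOP1 and PPAN, lie to the left.

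**Figure D2:**
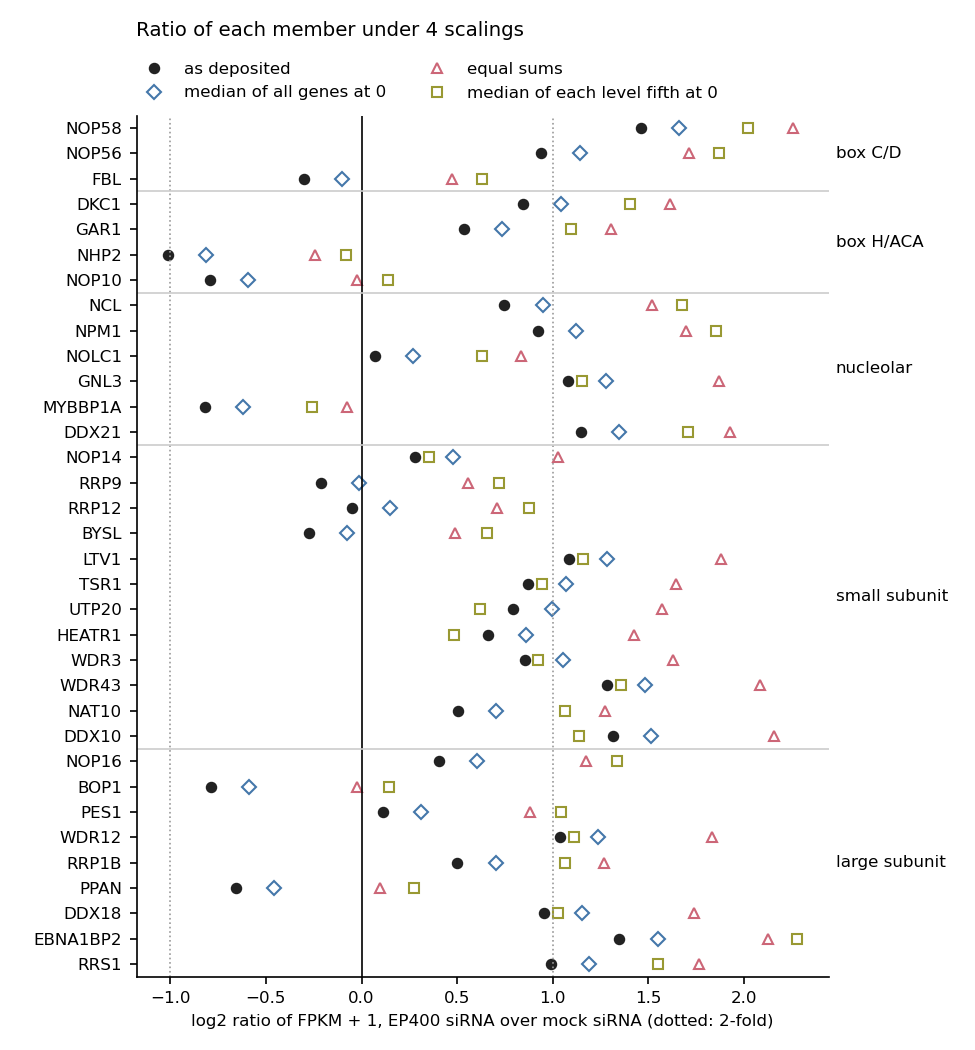
The log2 ratio of FPKM + 1 of each measured member as deposited and under 3 other scalings, with dotted lines at 2-fold. Every member moves to the right when both libraries are set to equal sums, and NHP2 and MYBBP1A are the only ones left of 0 under all 4 scalings shown.

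The ratio went with the mock level, within the members and in all genes. All 12 members under 10 FPKM in the mock library had a ratio above 0, with a median of 0.996 and 6 at least 2-fold higher. All genes in that band had a median of 0.23, with 9.18% at least 2-fold higher and 8.62% as far lower. Between 10 and 50 FPKM the median was 0.50 over 10 members and -0.64 over all genes. At 50 FPKM or more it was -0.05 over 12 members and -1.04 over all genes, where 52.9% were at least 2-fold lower. Spearman's rho between mean level and ratio was -0.53 over the 34 members (Pearson's r -0.55) and -0.37 over all genes (r -0.35), a description across genes that share the same libraries. The mean of the libraries enters both axes. The mock level that sets the bands is also the denominator of the ratio, so error in that 1 library alone tilts low bands up and high bands down. With genes divided into 5 equal groups by mean FPKM, 32 of the 34 members lay above the median of all genes of their own group. The exceptions were NHP2 in the highest group and MYBBP1A in the one below it. With each group's median set to 0, 19 members were higher by 2-fold or more and none lower by as much (median 1.05), against 10.2% and 12% of all genes. Transcript length did not order the ratios in the same way (rho 0.13).

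**Figure D3:**
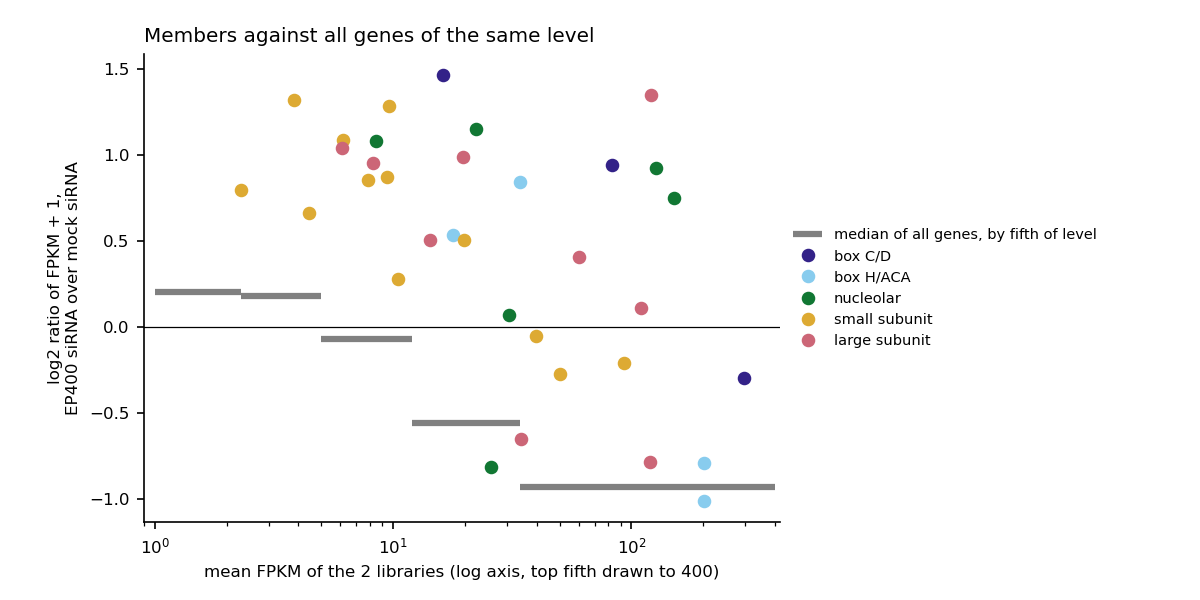
The log2 ratio of FPKM + 1 of each measured member against its mean FPKM on a log axis, coloured by role, with grey bars at the median ratio of all genes in each of 5 equal groups by mean FPKM. The grey bars go from 0.20 in the lowest group to -0.93 in the highest, and 32 of the 34 points lie above the bar of their group.

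Other genes of the pathway, a list of 91 processome, subunit maturation and snoRNP genes not among the 35, showed the same direction at a smaller size. Of 88 measured, 62 had a ratio above 0 (70.5%, against 42.7% of all genes), with a median of 0.58. By 2-fold or more, 19 were higher (21.6%, against 6.11% of all genes) and 4 lower (4.55%, against 22.9%). The small subunit factors among them had a median of 0.68 over 42 genes, the large subunit factors 0.58 over 40 and the snoRNP genes 0.48 over 6. The highest were CEBPZ at 2.005 and 10.1 FPKM (log2 1.88), NMD3, the export adaptor of the 60S subunit, at 1.09 and 5.32 FPKM (log2 1.60), and GTPBP4 at 2.12 and 7.79 FPKM (log2 1.49). The lowest were NOP53 at 275 and 118 FPKM (log2 -1.21), WDR18 at 113 and 49.9 FPKM (log2 -1.16) and DDX54 at 72.0 and 33.9 FPKM (log2 -1.07). The cytosolic ribosomal protein genes, the structural parts of the ribosome, lay on the other side of 0 as deposited. None of 79 measured was higher by 2-fold or more and 26 were lower by as much (32.9%), with a median of -0.70. Of all genes 6.11% were higher and 22.9% lower by as much. In the highest of the 5 groups by mean FPKM, 45.2% of all genes were lower by as much. The median of the ribosomal protein genes depended on the scaling. It was -0.50 with the median of all genes at 0, -0.30 with groups of local gene density centred and -0.41 with chromosomes centred. On equal sums it was 0.06, below the 0.48 of all genes, and with the 5 groups of mean FPKM centred it was 0.22, where the median of the members was 1.05.

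EP400 peaks lay at the ends of 22 of the 35 members (62.9%), against 36% of all genes analysed. A peak counted as being at an end when it overlapped, by 1 bp or more, the 2 kb on either side of the start or the end of the gene's locus in hg19. All 6 nucleolar scaffold, chaperone and regulator genes had one, as did 2 of 3 box C/D genes, 7 of 12 small subunit genes and 6 of 10 large subunit genes, but only DKC1 of the 4 box H/ACA genes. EP400 peaks were commoner at abundant genes, from 24.6% of all genes in the lowest of the 5 groups by mean FPKM to 49.1% in the highest. The share in members was above that of all genes in the middle group (7 of 8, against 36.2%) and the next one (7 of 9, against 39.7%), and close to it in the highest (7 of 14, against 49.1%). Within the locus or 2 kb around it 26 members had an EP400 peak, at a background of 49.4%.

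The EP400 peaks at member ends were narrow. Their 30 peaks had a median width of 100 bp, the same as the 4516 such peaks of all genes, and ran from 50 to 600 bp. The widest was at NCL, 600 bp at chr2:232328301-232328900, followed by 350 bp at DDX21 (chr10:70715901-70716250), peaks of 350 and 300 bp at BOP1, and 300 bp at NPM1 (chr5:170815401-170815700). Most others were 50 to 200 bp, such as 150 bp at NOP58 (chr2:203130551-203130700), 150 bp at DKC1 (chrX:153991651-153991800), 200 bp at GNL3 (chr3:52720051-52720250), 150 bp at LTV1 (chr6:144164501-144164650) and 200 bp at WDR43 (chr2:29117551-29117750). PES1 had a peak of 350 bp inside its locus, at chr22:30987751-30988100, that overlapped Pol II, MED26 and H3K18ac peaks of the mock lists and is not counted as lying at an end. Of the 30 peaks, 25 overlapped a mock Pol II peak (83.3%, against 72% of such EP400 peaks of all genes) and 22 a mock MED26 peak (73.3%, against 61.8%). Only 6 overlapped a mock H2AZ peak (20%, against 40.1%) and 5 a mock H3.3 peak (16.7%, against 19.2%).

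The position of these peaks could be set against the direction of transcription in 17 of the 24 members that were alone in their locus, those with a RefSeq entry giving the strand and a locus long enough to keep its ends apart. EP400 lay at the start of 8 of the 17 and at the far end of none, against 34.9% and 4.72% of 6019 such genes. Mock Pol II lay at the start of all 17 and at the far end of 3, FBL, NOP2 and PES1 (93.4% and 17.1% of such genes). At PES1, whose locus holds 4 transcripts, the outer end of the locus was taken as the start. A mock Pol II peak inside that locus, at chr22:30987601-30988300, is not counted here, and whether the main transcript starts there was not tested. The RefSeq promoter of PES1, at chr22:30591861-30592160 in GRCh38.p14, was not placed on hg19, so the outer end may not be its start. Counts of PES1 by its ends, here and below, may therefore not describe its promoter. Mock MED26 lay at the start of 17 and the far end of 2 (86.1% and 10.2%). Mock H2AZ lay at the start of 15 and the far end of none (83.4% and 5.23%). Mock H3.3 was spread over both ends, at the start of 11 and the far end of 10, against 65.4% and 37.2% of such genes. Within 2 kb of the start, the centres of the Pol II and MED26 peaks had medians of 98.5 and 79.0 bp, where positive values are inside the gene. Those of the EP400 peaks had a median of 286.5 bp, and those of the H2AZ peaks -295.5 bp, upstream of the start. H3.3 peaks were centred at a median of -513.5 bp, and 3 of their 21 centres were within 500 bp of the start.

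**Figure D4:**
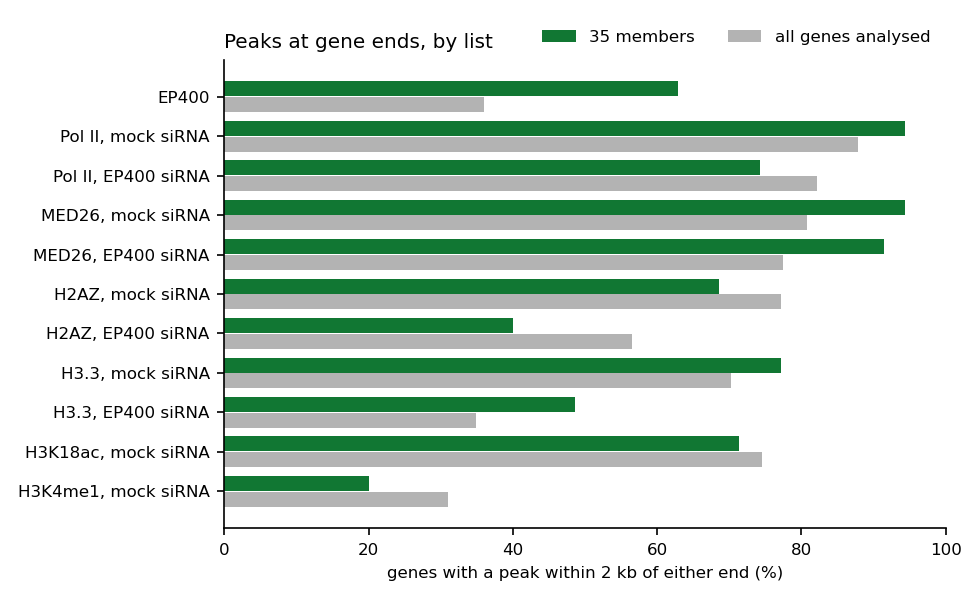
The percentage of the 35 members (green) and of all genes analysed (grey) with a peak within 2 kb of either end, for each of the 11 peak lists. The EP400 bar of the members is at 62.9% against 36%, and the Pol II bar of the members falls from 94.3% to 74.3% between the conditions.

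Pol II peaks covered less of every member after EP400 siRNA. Counting the locus and 2 kb around it, all 35 members had fewer bases under Pol II peaks after EP400 siRNA than after mock siRNA, against 82.6% of all genes, and the sum was 57000 bp after mock siRNA and 33400 bp after EP400 siRNA. At the ends alone it was fewer in 33 and equal at 0 in WDR12 and EBNA1BP2 (fewer in 75.8% of all genes), and the median went from 1100 to 600 bp, against 1200 to 800 bp in all genes. The 8 members whose RNA was at least 2-fold higher had less Pol II extent too. NOP58 went from 1100 to 200 bp, EBNA1BP2 from 1100 to 400 bp, DDX10 from 600 to 300 bp, WDR12 from 500 to 200 bp and LTV1 from 800 to 400 bp, while GNL3 (2400 to 2200 bp), WDR43 (1100 to 800 bp) and DDX21 (900 to 600 bp) differed by 200 to 300 bp. Because Pol II extent was smaller at every member, its direction was opposite to that of RNA at the 25 members with a ratio above 0. That count moves with the scaling, to 30 on equal sums and 32 with the 5 groups of mean FPKM centred. The share of all genes with opposite directions is not given here. The lists hold no peak heights, and the Pol II list as a whole was shorter after EP400 siRNA, with 20987 peaks against 30760, so the extent shows where signal passed the authors' threshold and not how much there was.

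At the level of presence, 33 members had a Pol II peak at an end after mock siRNA (94.3%, against 87.9% of all genes) and 26 after EP400 siRNA (74.3%, against 82.1%). The 7 members without one after EP400 siRNA were GAR1, NOP10, RRP12, UTP20, HEATR1, NAT10 and PES1, which is 21.2% of those with a mock peak, against 7.62% of all genes. With the mock list limited to the widest peaks, as many as the other list holds, all 33 members still had a mock Pol II peak. The share of all genes under this limit, and under the same limit for H2AZ and H3.3 below, is not given here. The mock peaks concerned were 1000 bp at GAR1 (chr4:110736401-110737400), 300 bp at NOP10 (chr15:34635101-34635400), 500 bp at RRP12 (chr10:99160701-99161200) and 500 bp at UTP20 (chr12:101673701-101674200). NAT10 had 900 bp (chr11:34126701-34127600) and HEATR1 900 bp (chr1:236767601-236768500), and PES1 had 3 peaks at its ends, the widest of 500 bp (chr22:31002801-31003300). HEATR1 kept a peak inside its locus, which it shares with LGALS8. Of these 7, NOP10 had a log2 RNA ratio of -0.79, and the others had ratios from -0.05 to 0.79.

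Members with a Pol II peak at an end only after mock siRNA were, with 1 exception, members without an EP400 peak at an end. Among them, GAR1 and PES1 had an EP400 peak inside the locus, which the counts below leave out. At PES1 the 350 bp EP400 peak overlapped a mock Pol II peak, and the locus held no Pol II peak after EP400 siRNA. PES1 would be a further exception if its main transcript starts there, which was not tested. Of 22 members with both an EP400 peak and a mock Pol II peak at an end, 21 had a Pol II peak after EP400 siRNA (95.5%), and HEATR1 was the exception. Of 11 with a mock Pol II peak and no EP400 peak at an end, 5 had a Pol II peak after EP400 siRNA (45.5%). Among all genes the shares were 95.9% of 4145 and 90% of 6121. The mock Pol II peaks were wider where EP400 was present, with a median of 1500 bp at the members with EP400 and 900 bp at those without, and the part of this width in the difference was not tested. The RNA ratios of these groups overlapped. The median was 0.85 over the 22 members with an EP400 peak at an end, with 5 at least 2-fold higher and none lower, and 0.31 over the 12 measured members without, with 3 higher and 1 lower. With the 5 groups of mean FPKM centred, these medians were 1.11 and 0.96.

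MED26, a subunit of the Mediator coactivator complex, had a peak at an end of 33 members after mock siRNA (94.3%, against 80.7% of all genes). After EP400 siRNA it had one at 32 (91.4%, against 77.4%). PES1 alone had one only after mock siRNA, of 100 bp, which is 3.03% of those with a mock peak, against 7.53% of all genes. Inside the PES1 locus a MED26 peak was in both lists, at chr22:30987601-30988000 after mock siRNA and chr22:30987601-30987900 after EP400 siRNA. In the locus all 35 members had a MED26 peak in both conditions, as had 89.4% and 87.4% of all genes. Its extent there was smaller in 22 members and larger in 11, against 58.9% and 21.2% of all genes. It was larger at all 4 box H/ACA genes, from 900 to 1100 bp at DKC1, 700 to 1100 bp at GAR1, 200 to 500 bp at NHP2 and 200 to 300 bp at NOP10, while Pol II extent at these genes was smaller. At NHP2 the larger extent came from a 400 bp peak at the far end (chr5:177575401-177575800). Near its start the MED26 peak was 200 bp after mock siRNA and 100 bp after EP400 siRNA. At GAR1 and NOP10 the mock Pol II peak had no counterpart after EP400 siRNA and the MED26 peak was wider. Of 46 mock MED26 peaks at member ends, 38 overlapped one after EP400 siRNA (82.6%, Wilson 95% interval 69.3 to 90.9%, which covers counting error only), against 69.7% of such peaks of all genes. For Pol II the share was 66% of 50 peaks (52.2 to 77.6%), near the 69.8% of all genes.

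H2AZ and H3.3 peaks were at fewer members after EP400 siRNA. H2AZ had a peak at an end of 24 members after mock siRNA (68.6%, against 77.1% of all genes) and of 14 after EP400 siRNA (40%, against 56.5%). The 10 members with a mock peak only were NOP56, NHP2, NCL, NPM1, GNL3, RRP9, BYSL, UTP20, WDR43 and NAT10, which is 41.7% of those with a mock peak, against 28.7% of all genes, and no member had one only after EP400 siRNA. The extent in the locus was larger after EP400 siRNA at 6 members, GAR1, DDX21, LTV1, TSR1, DDX10 and PES1, by 100 to 200 bp each, and smaller at 20 (5.65% and 76.3% of all genes). The H2AZ list went from 58082 to 26526 peaks. With the mock list limited to the widest peaks, as many as the other list holds, 18 members had a mock H2AZ peak at an end.

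H3.3 had a peak at an end of 27 members after mock siRNA (77.1%, against 70.3% of all genes) and of 17 after EP400 siRNA (48.6%, against 34.9%). Of 83 mock H3.3 peaks at member ends, 14 overlapped one after EP400 siRNA (16.9%, interval 10.3 to 26.3%), against 7.6% of the 17919 such peaks of all genes. The 12 members with a mock peak only were FBL, DKC1, NHP2, MYBBP1A, RRP9, RRP12, LTV1, WDR3, NOP16, BOP1, PES1 and RRP1B, which is 44.4% of those with a mock peak, against 58.3% of all genes. WDR43 and DDX18 had one only after EP400 siRNA. The H3.3 list went from 79838 to 41439 peaks, and with the mock list limited in the same way as for H2AZ, 22 members had a mock peak. In the locus the extent was smaller in 23 members and larger in 7, against 63.8% and 21% of all genes. The largest decreases were at NOP2, from 9900 to 1200 bp, PPAN, from 5900 to 300 bp, NOP56, from 5900 to 900 bp, and NOP14, from 4700 to 700 bp. The largest increase was at WDR43, where 7 mock peaks covered 800 bp and 29 peaks after EP400 siRNA covered 7800 bp. NPM1 went from 5700 to 8000 bp, NOP58 from 900 to 2500 bp and DDX10 from 200 to 900 bp. These 4 members also had higher RNA, at log2 1.28, 0.92, 1.46 and 1.32. Of the others with more H3.3 extent, HEATR1 and DDX18 had RNA ratios of 0.66 and 0.95, and NOP10 (100 to 300 bp) had -0.79. Other members with higher RNA, such as NOP56 (5900 to 900 bp, RNA log2 0.94), NCL (5400 to 3400 bp) and DDX21 (2400 to 1900 bp), had less H3.3 extent. RNA was above its mock level at 25 of all 34 measured members, so higher RNA is not particular to members with more H3.3 extent.

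**Figure D5:**
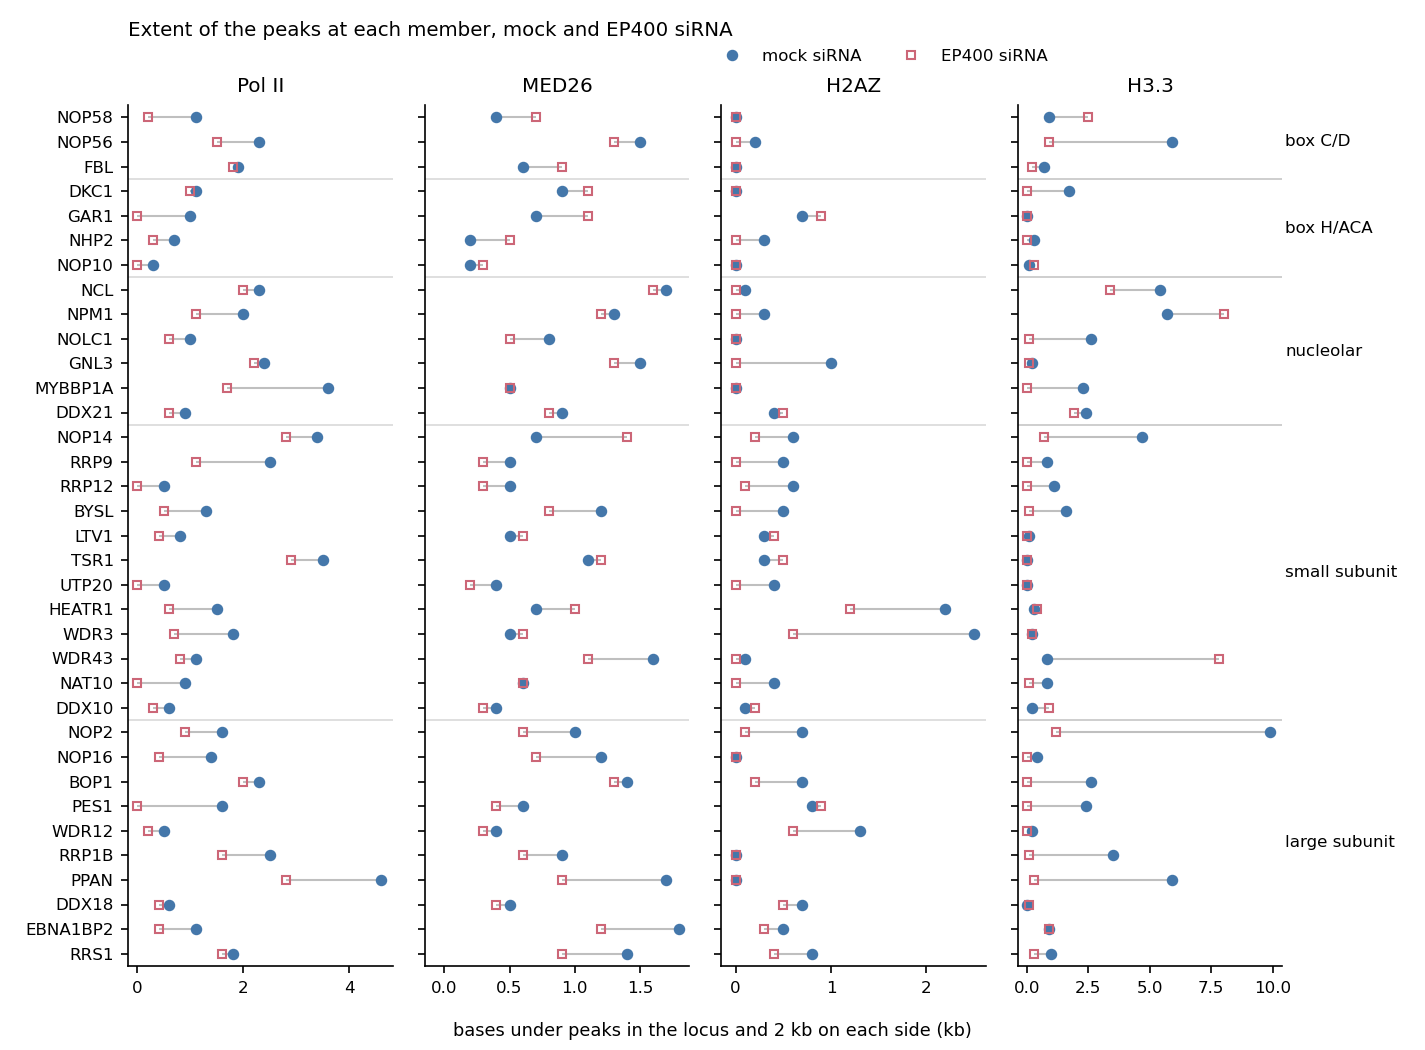
Bases under Pol II, MED26, H2AZ and H3.3 peaks in each member's locus and 2 kb on each side, in kb, after mock siRNA (circles) and EP400 siRNA (squares), with a separate axis per factor. Every Pol II square lies to the left of its circle, MED26 squares lie on both sides, and the H3.3 squares of WDR43 and NPM1 lie far to the right.

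Histone marks of active promoters and enhancers were measured after mock siRNA. H3K18ac, an acetylation found at both, had a peak at an end of 25 members (71.4%, against 74.6% of all genes). All 6 nucleolar genes and all 3 box C/D genes had one. H3K4me1, a mark of enhancers, had a peak at an end of 7 members (20%, against 31% of all genes), NOLC1, MYBBP1A, NOP14, WDR3, BOP1, PES1 and RRP1B, and in the locus or 2 kb around it of 15 (54.2% of all genes). None of the 30 EP400 peaks at member ends overlapped a H3K4me1 peak, near the 3.28% of such EP400 peaks of all genes, and 16 overlapped a H3K18ac peak (53.3%, against 56.9%).

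Some loci hold more than 1 gene, and 11 members shared theirs, GNL3, MYBBP1A, NOP14, TSR1, HEATR1, WDR3, NOP16, BOP1, WDR12, PPAN and EBNA1BP2. WDR12 and EBNA1BP2 had no peak of Pol II or MED26 at an end of the merged locus and had them inside it. At NOP14 the EP400 peak counted (chr4:2936751-2936800) lay at the far end of the gene, more than 2 kb from its start. Peaks at these 11 loci may belong to the neighbouring gene, and their part in the peak counts was not tested.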

How the data were processed

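RNA values are FPKM deposited by the authors per transcript, with confidence limits and a quantification status, per the file headers. The submitters' processing notes name Bowtie 0.12.9, TopHat2 2.0.8, Cuffdiff 2.0.2 and build hg19. For the annotation release, peak caller, threshold and control, each is not given in the sources used here. Sequencing depth is unknown, so no interval or count model was used. RefSeq identifiers matched a symbol for 47555 of 48669 rows (97.7%). Rows of 200 nt or more, with their limits, were summed per gene, and 11673 genes with a mean of at least 1 FPKM and no failed estimate were analysed. The pseudocount was 1 FPKM and a call was a 2-fold ratio. The lowest nonzero values put the worth of 1 fragment, in FPKM times length, 1.56 times higher in the mock library. The peak lists hold positions and no score, and number chromosomes X and Y as 23 and 24, which were renamed. Of 388 X-linked genes analysed, 331 then had a mock Pol II peak in their locus. EP400 peaks were deposited as 1 list for 3 immunoprecipitations, and 4 inputs were not analysed here. Overlaps and ratios were computed with pandas 2.3.3 and numpy 2.4.6, scripts being tested on simulated data. The members and gene lists were chosen with earlier results of these data known. All 35 members are named. Other pathway genes are named when among the 3 highest or lowest ratios. Alternatives were other pseudocounts, filters, scalings, transcript choices, end windows, overlaps and list lengths.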

Additional observations from a re-analysis of the deposited data

How the results depend on the processing

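No paired analysis was possible because the EP400 precipitations and their inputs, which share replicate numbers, come as 1 pooled list, and every other condition has 1 library. The count of members 2-fold or more higher was 8 as reported, 15 with the median of all genes at 0, 23 on equal sums and 19 with 5 groups of mean FPKM centred. The count 2-fold or more lower was 1 as reported and 0 under each of these 3 scalings. The median log2 ratio was 0.70 as reported, and 0.90, 1.47 and 1.05 under them, and 0.54 over the 31 members with a mean of 5 FPKM or more. Over the 23 members alone in their locus, an alternative chosen after seeing the data, 5 were 2-fold or more higher. After EP400 siRNA, 10 members had a H3.3 peak at an end with a window of 1 kb in place of 2 kb (17). With the wider 0.5 of each list, 13 had a H3K18ac peak (25) and 4 a H3K4me1 peak (7). H3K4me1 was at 4 with a window of 1 kb, 14 with 5 kb and 15 anywhere in the locus. The other 78 of 95 alternative values kept their direction and lay within 1.5 times of the count reported, or within 0.1 of the median. Depth is unknown, which limits what can be said of FPKM near the pseudocount.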

Other observations

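Several members host small nucleolar RNAs in their introns, and these short transcripts have rows of their own in the RNA table. In 8 member loci there were 22 such rows, 18 of them of the box C/D class. They were left out of the gene sums because FPKM of very short transcripts rest on few fragments. Of the 22, 7 were listed at 0 in both libraries, 7 only in the mock library and 3 only in the EP400 siRNA library, and the authors' limits did not separate for any. The NOP56 locus had the highest values. SNORD57 was at 191 FPKM in the mock library and 447 FPKM after EP400 siRNA, SNORD56 at 348 and 490 FPKM and SNORD110 at 197 and 283 FPKM. SNORA51 in the same locus went the other way, at 10.2 and 4.36 FPKM. SNORD86 was listed at 0 in the mock library and at 280.1 FPKM after EP400 siRNA, with the authors' status of low data in both libraries. The host gene, NOP56, was at 56.4 and 109 FPKM.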
